A study of Mus musculus with 18 samples.

Results

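In mouse CD8+ T cells, 10 genes of ion channels and calcium entry were followed: Stim1 and Orai1, which make calcium entry from outside the cell, the potassium channel genes Kcna3, Kcnn4, Kcnc1 and Kcnh5, the cation channel genes P2rx7, Trpv2 and Cnga1, and Cacnb3, a subunit of voltage-gated calcium channels. They were taken by name, through the Ensembl identifiers of GENCODE M21, and all 10 were found among the 55487 genes of the count table. They were chosen by the size of their fold changes, since several were among the largest differences between the groups of these data. Their fold changes and calls are therefore a description with no p attached. The lists of related genes further down were drawn up by role and family, also with earlier results known, and their adjusted p-values are not independent evidence.

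The cells came from spleens and lymph nodes of wild-type C57BL/6J mice and were sorted out of the CD8+ T cell pool by 41BB (CD137, encoded by Tnfrsf9), a costimulatory receptor of activated T cells. The 41BB+ cells are called Tpam by the study, and the 41BB- cells are its conventional CD8+ T cells. RNA was taken without culture (0 h, no activation) and at 24 h and 72 h in culture on CD3/CD28 beads, whose antibodies stimulate the T cell receptor and its costimulatory pathway. Each of the 6 groups had 3 libraries, described as biological triplicates and numbered by experiment. Neither the age and sex of the mice nor any pooling of animals is given in the sources used here. Every cultured library was stimulated, so time in culture and stimulation cannot be told apart.

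In T cells, the T cell receptor sets free inositol trisphosphate, which empties the calcium store of the endoplasmic reticulum. STIM proteins in the store's membrane sense the loss and open ORAI channels in the plasma membrane, and the calcium that enters activates calmodulin, calcineurin and NFAT. Potassium channels let positive charge out again and so keep the electrical drive for calcium entry, while other cation channels add entry routes that respond to ATP, cyclic nucleotides or other cues.

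Total counts per library ran from 3085241 to 4239795, and no library was a copy of another: between replicates, chi-square over its degrees of freedom was 4.56 to 8.90. Genes detected numbered 19619 to 22816 in 0 h libraries, 16503 to 20606 in 24 h libraries and 17431 to 18624 in 72 h libraries. The part of this in the changes over time was not tested. Levels below are in CPM, which scale each gene's counts to its library's total and take no account of gene length. Tnfrsf9, the gene of the sorted receptor, stood at 389 ± 27.5 CPM (SD, n = 3) in 41BB+ and 6.74 ± 1.74 CPM in 41BB- libraries at 0 h, at 138 and 183 CPM at 24 h, and at 21.2 and 52.4 CPM at 72 h. All 4 CD8 T cell markers (Cd3e, Cd3d, Cd8a and Cd8b1) were present in every library, and Cd4 had 0 to 4 counts in any of them. Foxp3, of regulatory T cells, had 0 to 87 counts a library and was higher on average in 41BB+ cells, 2.91 against 0.516 CPM at 0 h, 2.77 against 2.07 CPM at 24 h and 18.1 against 5.13 CPM at 72 h. Of the markers of other cells, Itgam, Mcpt8 and Ppbp were at 0 throughout and the B cell genes Cd79a and Ms4a1 had 0 to 5 counts, while the plasma cell genes Jchain and Sdc1 reached 41 and 20 counts and the myeloid genes Lyz2 and Csf1r 173 and 41 counts in a library. Mean Ighm in 41BB+ against 41BB- cells was 89.7 against 229 CPM at 0 h, 173 against 142 CPM at 24 h and 551 against 463 CPM at 72 h. Mean Pecam1, of endothelial cells and some leukocytes, was 115 against 227 CPM, 26.1 against 38.0 CPM and 237 against 113 CPM. At 0 h the 7 myeloid and dendritic markers summed to 14.0 to 33.7 CPM in 41BB+ and 7.54 to 11.0 CPM in 41BB- libraries. At 24 h that sum was 0 to 59.4 CPM and 0.638 to 10.9 CPM. The part of these markers in the differences below was not tested.

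The stretches just before the starts of Stim1, Orai1, Kcna3 and Kcnn4 are printed because these 4 genes carry the classical steps of the pathway, were counted at 10 or more in all 18 libraries, and took different courses over time. They are RefSeq promoter windows on GRCm38.p6, 5′ to 3′ on the plus strand, cut at the annotated gene start.
Stim1, chr7:102267569-102267805: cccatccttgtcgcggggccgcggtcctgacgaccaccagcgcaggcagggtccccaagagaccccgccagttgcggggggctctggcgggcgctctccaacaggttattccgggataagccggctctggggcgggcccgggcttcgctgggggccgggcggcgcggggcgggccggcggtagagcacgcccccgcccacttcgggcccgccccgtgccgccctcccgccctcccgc
Orai1, chr5:123014824-123015073: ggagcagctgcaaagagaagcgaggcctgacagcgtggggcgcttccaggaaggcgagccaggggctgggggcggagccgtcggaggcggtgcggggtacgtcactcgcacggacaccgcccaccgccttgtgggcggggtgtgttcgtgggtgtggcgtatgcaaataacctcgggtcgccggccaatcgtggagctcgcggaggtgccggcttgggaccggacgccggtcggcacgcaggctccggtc
Kcna3, chr3:107035912-107036161: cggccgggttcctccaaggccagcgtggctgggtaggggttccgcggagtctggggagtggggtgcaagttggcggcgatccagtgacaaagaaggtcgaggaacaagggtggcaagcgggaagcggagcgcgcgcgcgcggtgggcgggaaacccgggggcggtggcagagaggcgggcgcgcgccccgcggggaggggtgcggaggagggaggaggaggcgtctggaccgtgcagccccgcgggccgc
Kcnn4, chr7:24370013-24370262: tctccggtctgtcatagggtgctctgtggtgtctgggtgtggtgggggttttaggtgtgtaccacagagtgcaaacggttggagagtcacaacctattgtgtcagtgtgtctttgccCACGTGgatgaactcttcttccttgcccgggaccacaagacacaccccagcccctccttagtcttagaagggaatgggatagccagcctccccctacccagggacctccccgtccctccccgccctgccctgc
Capitals mark the one E-box, CACGTG, in the Kcnn4 window. The 250-base windows of Stim1, Orai1 and Kcna3 held 78.4%, 70.8% and 74.4% G and C and that of Kcnn4 58.8%, against a median of 52.4% over all promoters. Both strands were searched for GGAAAA (the core bound by NFAT), TGANTCA (AP-1) and CACGTG (E-box), which 20.4%, 6.75% and 6.02% of all 32851 promoter windows held. Over the 14 windows of the 10 genes, GGAAAA was found in 1 (Cnga1), TGANTCA in 1 (P2rx7) and CACGTG in 1 (Kcnn4), and no window held more than 1 match.

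Between the populations, Stim1 and Cnga1 were lower in 41BB+ cells at 0 h and higher at 72 h. At 0 h, Stim1, Trpv2 and Cnga1 were lower and Kcna3 was higher in 41BB+ cells, so that 4 of the 10 passed the threshold (edgeR, Benjamini-Hochberg adjusted p below 0.05 over 13150 genes), where 39.5% of all tested genes did (22.2% higher and 17.3% lower). The share of the 10 is near that background. At 72 h, Stim1, Orai1, Kcna3, Kcnh5 and Cnga1 were all higher in 41BB+ cells, 5 of the 10, where 6.71% of all tested genes were called higher and 12.2% lower. No more is read from that count, since the 10 were chosen with these values known.

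At 24 h none of the 10 was called by edgeR between the populations, where 2.75% of all tested genes were called (1.67% higher and 1.07% lower). Unadjusted, 4 of the 10 and 12.4% of all tested genes had a p below 0.05, and nothing is read from these shares because of how the 10 were chosen. DESeq2 called 2 of them, Orai1 and Kcnc1, and limma voom called 1, Orai1. Of all tested genes, limma voom called 550 where edgeR called 361. How many of all genes DESeq2 called is not given here, and no more is read from these counts. The median log2 fold change of the 10 (41BB+ over 41BB-) was -0.36 at 0 h, -0.18 at 24 h and 0.52 at 72 h, beside 0.01, 0.02 and -0.04 over all tested genes.

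**Figure D1:**
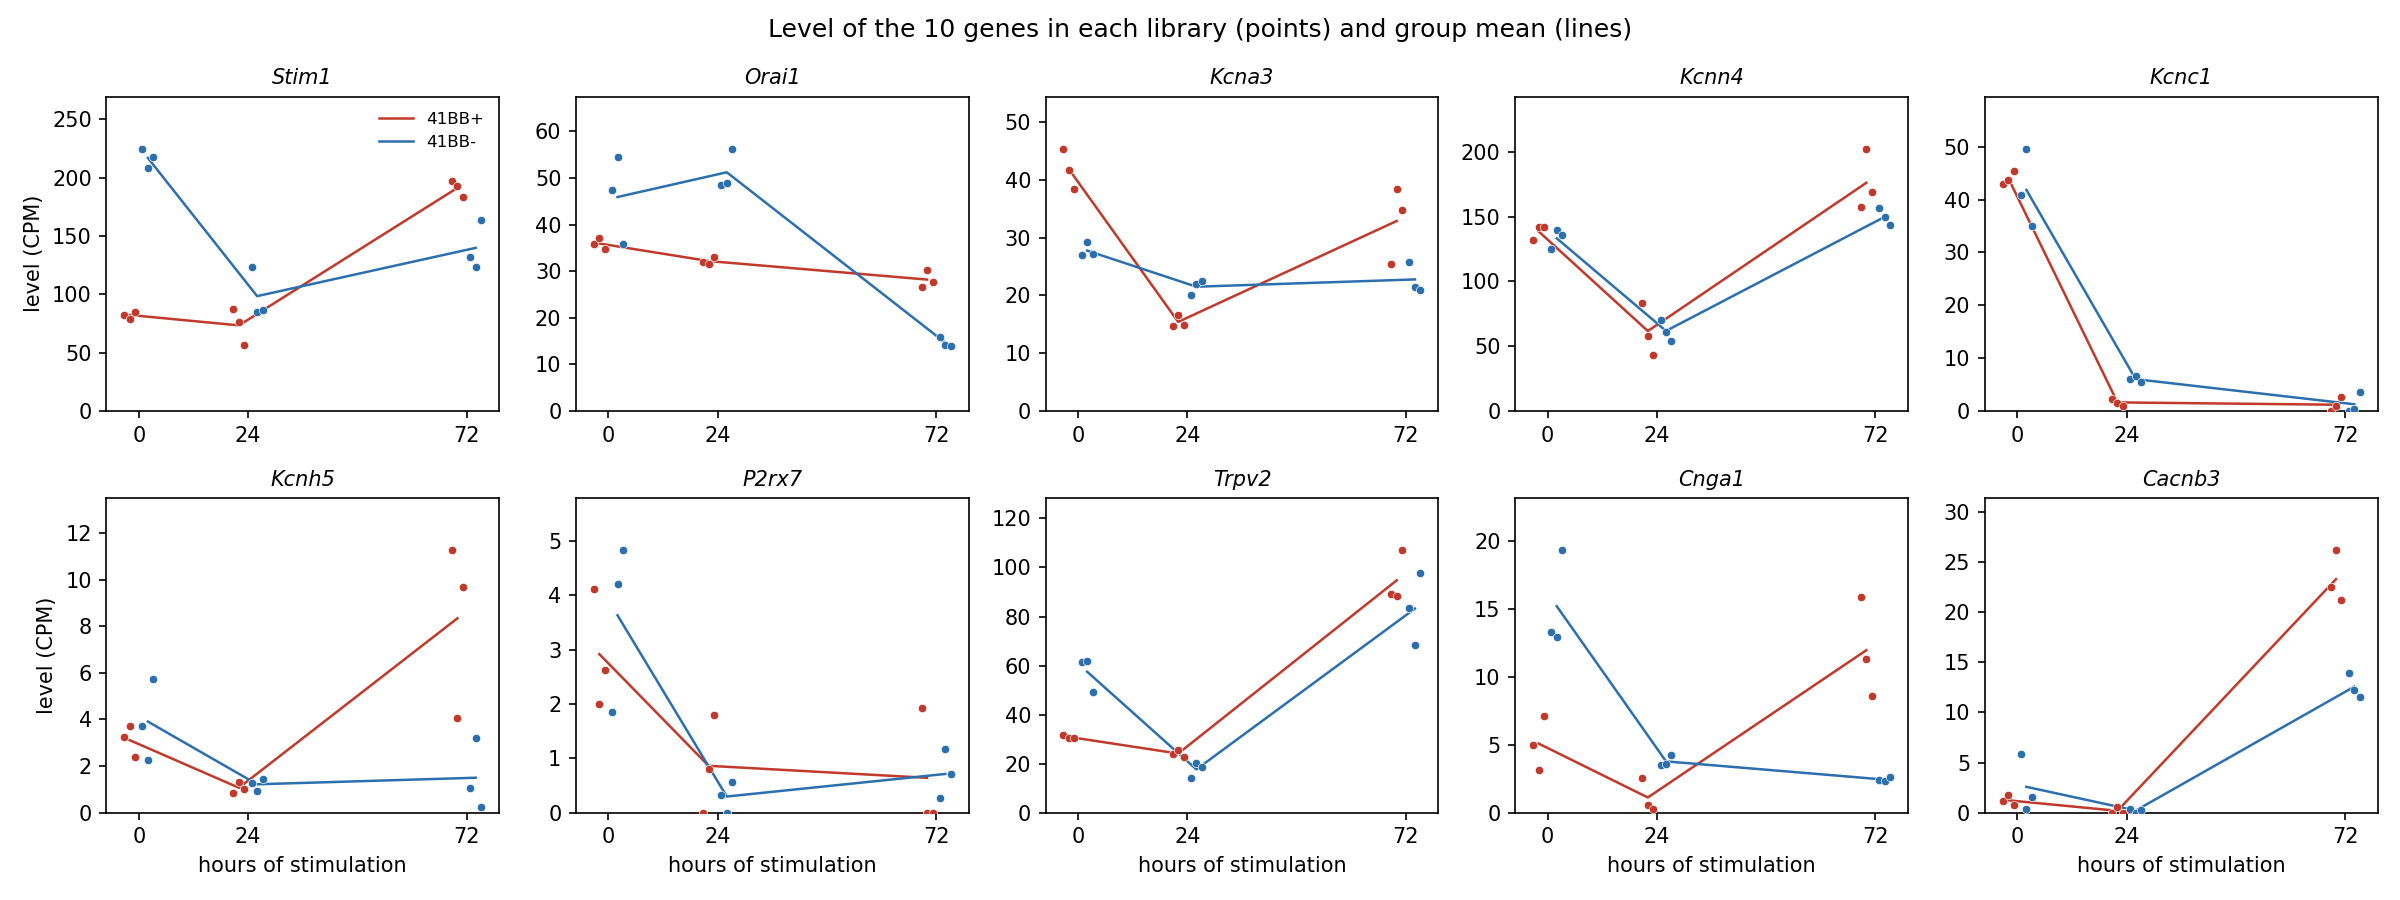
Level in CPM (vertical axis, linear from 0, its own scale for each gene) against hours of stimulation for the 10 genes. Points are libraries, red for 41BB+ and blue for 41BB-, set slightly apart, and lines join the group means. Stim1 starts at 79.2 to 85.2 CPM in 41BB+ and 208 to 225 CPM in 41BB- libraries and ends with 41BB+ on top, and Cacnb3 is near 0 until 72 h.

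**Figure D2:**
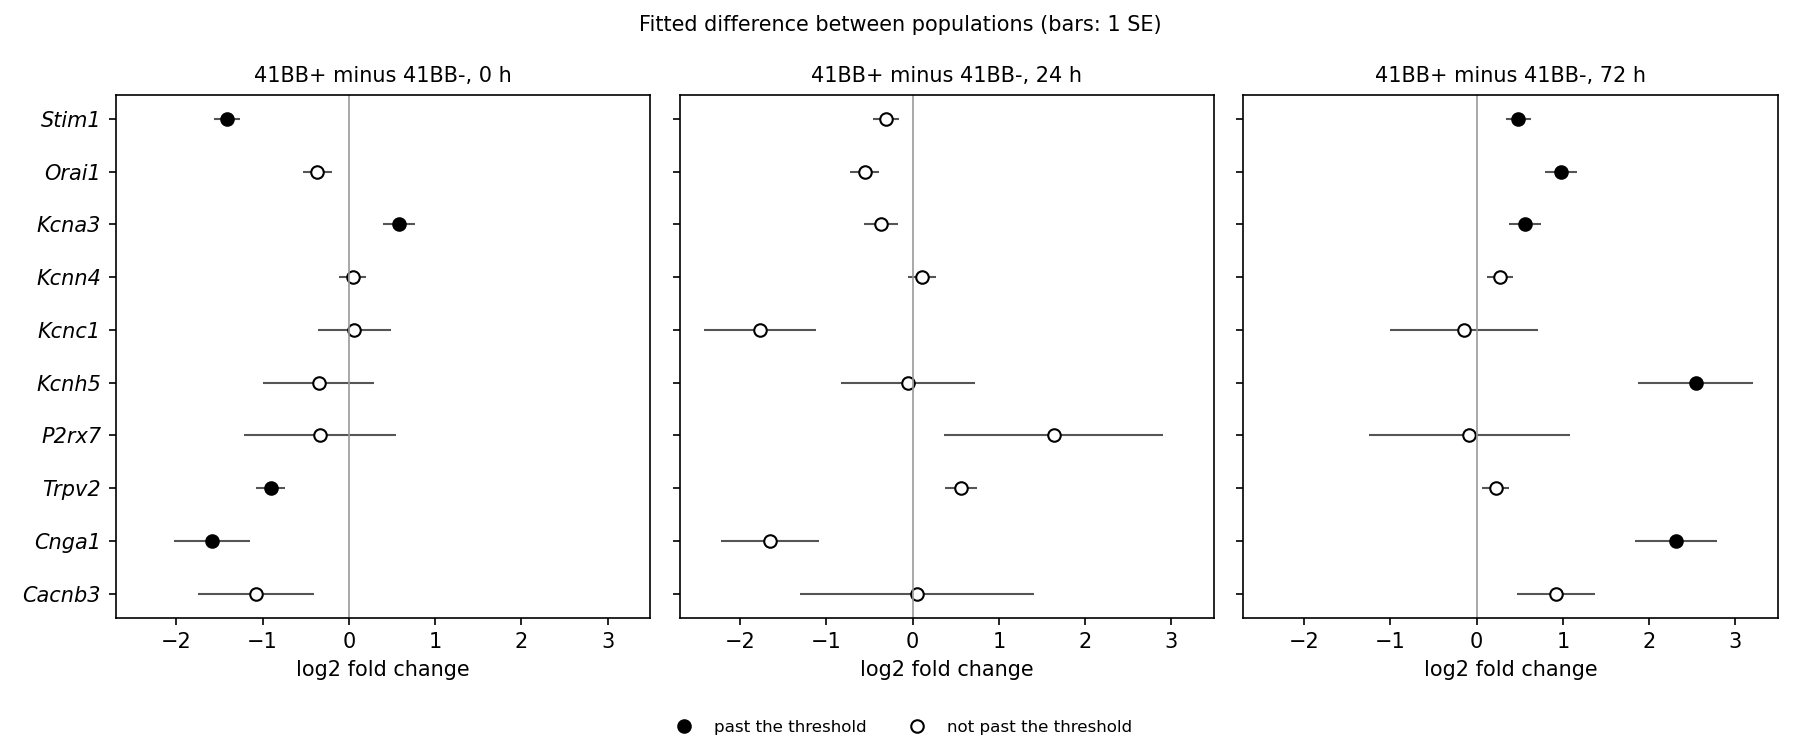
Fitted log2 fold change of 41BB+ over 41BB- cells (horizontal axis) for each gene at 0, 24 and 72 h, with bars of 1 standard error. Filled points passed the threshold. At 0 h 3 of the 4 filled points lie left of 0 (lower in 41BB+), at 24 h none is filled, and at 72 h all 5 lie right of it.

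From 0 h to 24 h none of the 10 genes rose in either population. In 41BB+ cells Kcna3, Kcnn4, Kcnc1 and Cnga1 fell, 4 of the 10, where 16.5% of all tested genes fell and 18.1% rose. In 41BB- cells 8 of the 10 fell, all but Orai1 and Kcna3, where 56.6% of all tested genes were called (27.6% fell and 29.0% rose). With only the compared groups in the fit, 5 of the 10 were called in 41BB- cells, and Kcnh5, P2rx7 and Cacnb3 had too few counts to be tested there. The change differed between the populations for 3 genes, Stim1, Trpv2 and Kcna3, in a test of the interaction of population and time that called 23.0% of all tested genes (9.03% positive and 14.0% negative).

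From 24 h to 72 h, 7 of the 10 rose in 41BB+ cells (Stim1, Kcna3, Kcnn4, Kcnh5, Trpv2, Cnga1 and Cacnb3), where 26.2% of all tested genes rose and 26.3% fell. In 41BB- cells Stim1, Kcnn4, Trpv2 and Cacnb3 rose and Orai1 and Kcnc1 fell, 6 of the 10, where 40.8% of all tested genes were called (22.6% rose and 18.2% fell). The interaction was positive for Stim1, Orai1, Kcna3 and Cnga1, which means a larger rise or a smaller fall in 41BB+ cells, and 6.10% of all tested genes were called in that direction. The intervals share the 24 h libraries, and the contrasts of population and of time share libraries too, so their directions are not independent. Against plain library totals, TMM scaling moved the fold changes of all genes by 0.12 between populations at 24 h, by 0.15 from 24 h to 72 h in 41BB- cells and by 0.13 in the interaction from 0 h to 24 h, all log2. The calls are relative to that scaling, and CPM values are not.

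**Figure D3:**
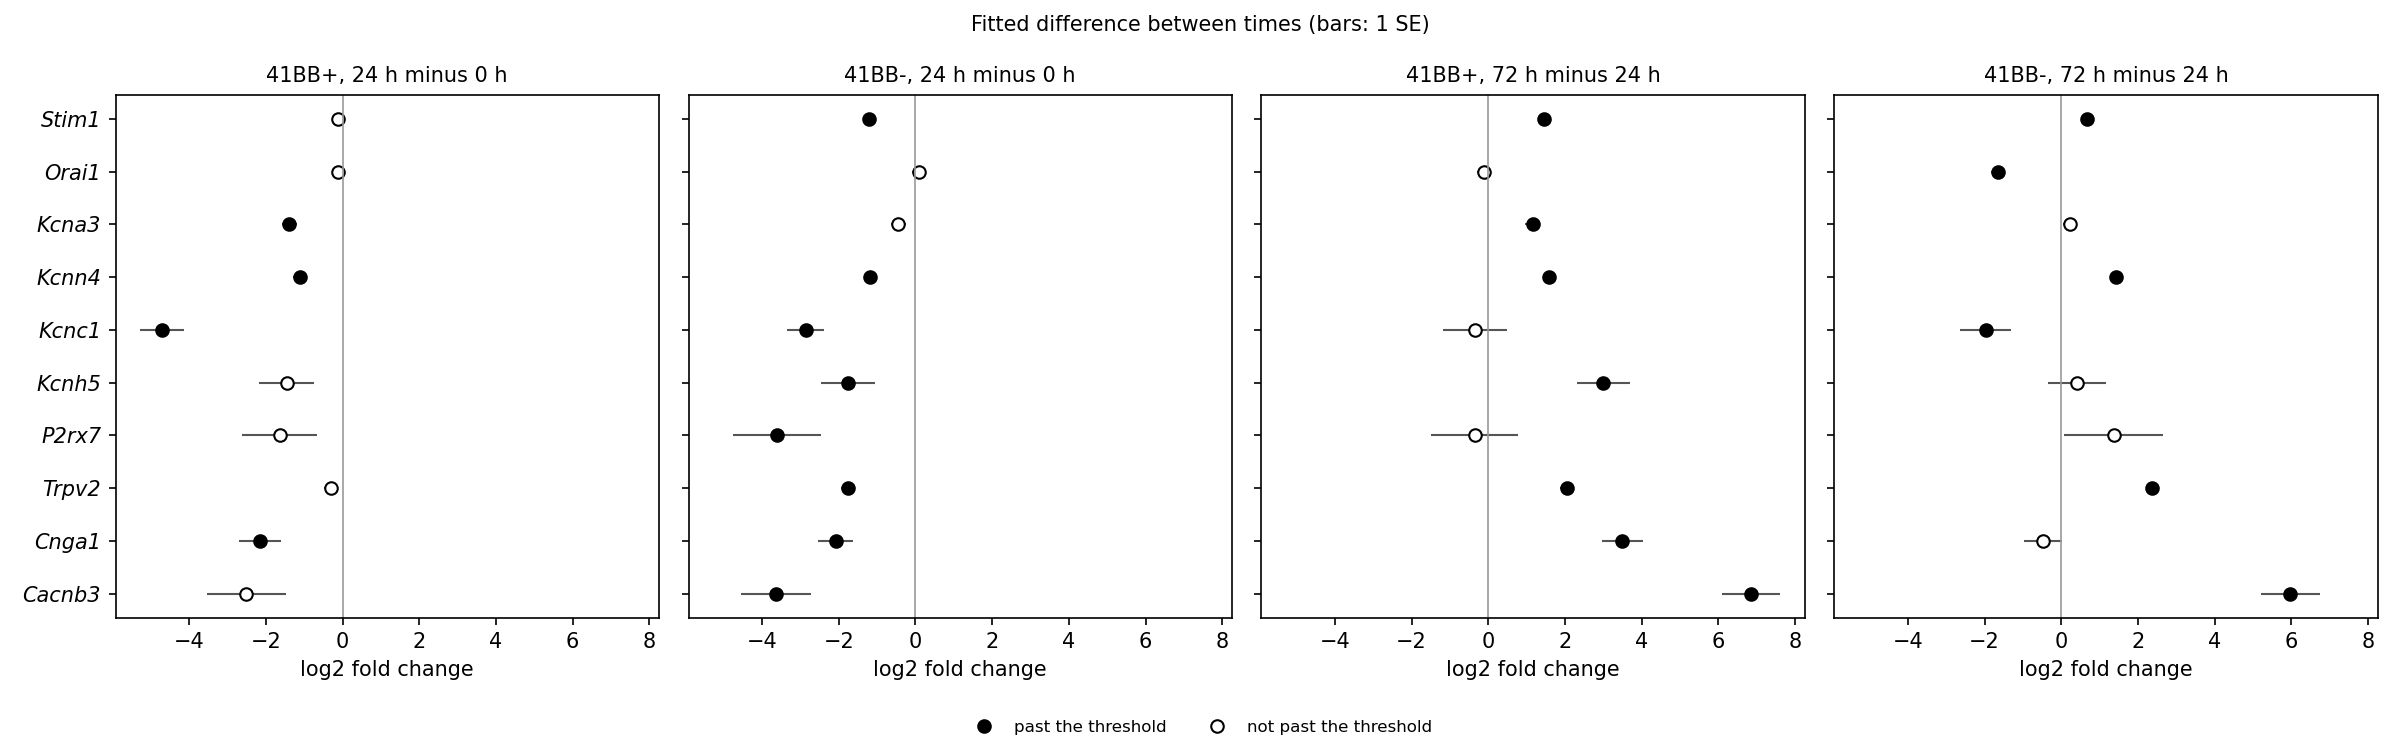
Fitted log2 fold change of the later over the earlier time (horizontal axis) in each population, for 0 h to 24 h (the 2 panels on the left) and 24 h to 72 h (the 2 on the right), with bars of 1 standard error and filled points past the threshold. Kcnc1 has the lowest point, -4.70 in 41BB+ cells, and Cacnb3 the highest, 6.85 in 41BB+ and 5.97 in 41BB- cells.

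Stim1 encodes the sensor of the store, on chromosome 7 from 102267806 to 102437319 (plus strand, GRCm38). At 0 h it was counted at 82.5, 79.2 and 85.2 CPM in 41BB+ libraries 1 to 3 and at 225, 208 and 218 CPM in 41BB- libraries 1 to 3. Every 41BB- library was above every 41BB+ library, and the fitted log2 fold change was -1.41 (SE 0.15). In bulk RNA, fewer cells with a transcript and less of it per cell cannot be told apart. At 24 h the values were 87.6, 76.3 and 56.2 CPM against 124, 84.6 and 86.9 CPM, which overlap, and the log2 fold change of -0.31 (SE 0.15) was not called. By 72 h the order had turned, with 197, 193 and 183 CPM in 41BB+ and 132, 124 and 163 CPM in 41BB- libraries, no overlap, and a log2 fold change of 0.49 (SE 0.15) that passed the threshold.

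Over time Stim1 took different courses in the populations. In 41BB- cells it fell by 1.22 (SE 0.15, log2) from 0 h to 24 h, while the change in 41BB+ cells was -0.12 (SE 0.15) and was not called. By 72 h it had risen from 24 h, by 1.45 (SE 0.15) in 41BB+ and by 0.66 (SE 0.15) in 41BB- cells. The difference between these changes was 1.10 (SE 0.21) over the first interval and 0.79 (SE 0.21) over the next, both called. Without 41BB- library 2 the population difference at 72 h was 0.46 and lost its call.

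Orai1 encodes the pore subunit that STIM proteins open, on chromosome 5 from 123015074 to 123030456 (plus strand). At 0 h the populations overlapped, at 35.9, 37.2 and 34.7 CPM in 41BB+ and 47.4, 54.5 and 35.9 CPM in 41BB- libraries, and the log2 fold change of -0.36 (SE 0.17) was not called. Libraries of the populations separated at 24 h, at 32.0, 31.5 and 33.0 CPM against 48.5, 48.9 and 56.2 CPM, with a log2 fold change of -0.55 (SE 0.17) that missed the threshold. It passed there in DESeq2 (-0.55), in limma voom (-0.54) and with only the compared groups in the fit (-0.58), and at 0 h it passed without 41BB- library 3 (-0.52). At 72 h the order was the other way round, at 26.6, 30.3 and 27.7 CPM in 41BB+ and 15.8, 14.2 and 13.9 CPM in 41BB- libraries, a log2 fold change of 0.98 (SE 0.18) that was called.

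The shift of Orai1 came with a fall in 41BB- cells from 24 h to 72 h, by 1.65 (SE 0.18, log2). In 41BB+ cells the change over the same interval was -0.12 (SE 0.17), not called, and the difference of the changes was 1.53 (SE 0.25), called. From 0 h to 24 h Orai1 was called in neither population, at -0.11 (SE 0.17) in 41BB+ and 0.08 (SE 0.17) in 41BB- cells. Orai1 shares 7 exon bases with Gm2479 on the opposite strand, which had 55 counts over all 18 libraries.

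Beside the relatives Stim2, Orai2 and Orai3, which carry related functions, the make-up of the pair can be compared per length (RPKM, CPM per kilobase of merged exons). The ratio of Stim1 to Stim2 RPKM was 0.307 ± 0.040 (SD, n = 3) in 41BB+ and 1.26 ± 0.088 in 41BB- cells at 0 h, 0.487 ± 0.049 and 0.672 ± 0.193 at 24 h, and 0.938 ± 0.175 and 0.699 ± 0.104 at 72 h. At 0 h Stim2 was thus the more abundant sensor transcript in all 3 41BB+ libraries, and Stim1 in all 3 41BB- libraries. Summed over Orai1, Orai2 and Orai3, the level was 33.0 ± 1.77 RPKM in 41BB+ and 55.7 ± 5.42 RPKM in 41BB- cells at 0 h, 21.2 ± 1.01 and 32.5 ± 2.74 RPKM at 24 h, and 38.2 ± 1.18 and 23.6 ± 2.06 RPKM at 72 h. At each time the libraries of the populations did not overlap in this sum, which was larger in 41BB- cells at 0 h and 24 h and larger in 41BB+ cells at 72 h.

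The share of Orai1 in that sum was 47.6% ± 3.90 in 41BB+ and 35.7% ± 4.14 in 41BB- cells at 0 h, 66.4% ± 4.59 and 68.7% ± 1.89 at 24 h, and 32.1% ± 1.14 and 27.1% ± 1.16 at 72 h. Orai1 thus made up most of the sum at 24 h in every library of either population. Orai2 made up 56.1% ± 4.89 in 41BB- cells at 0 h, when its share in 41BB+ cells was 32.7% ± 6.28, and 51.9% ± 2.37 and 49.0% ± 9.66 at 72 h.

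**Figure D4:**
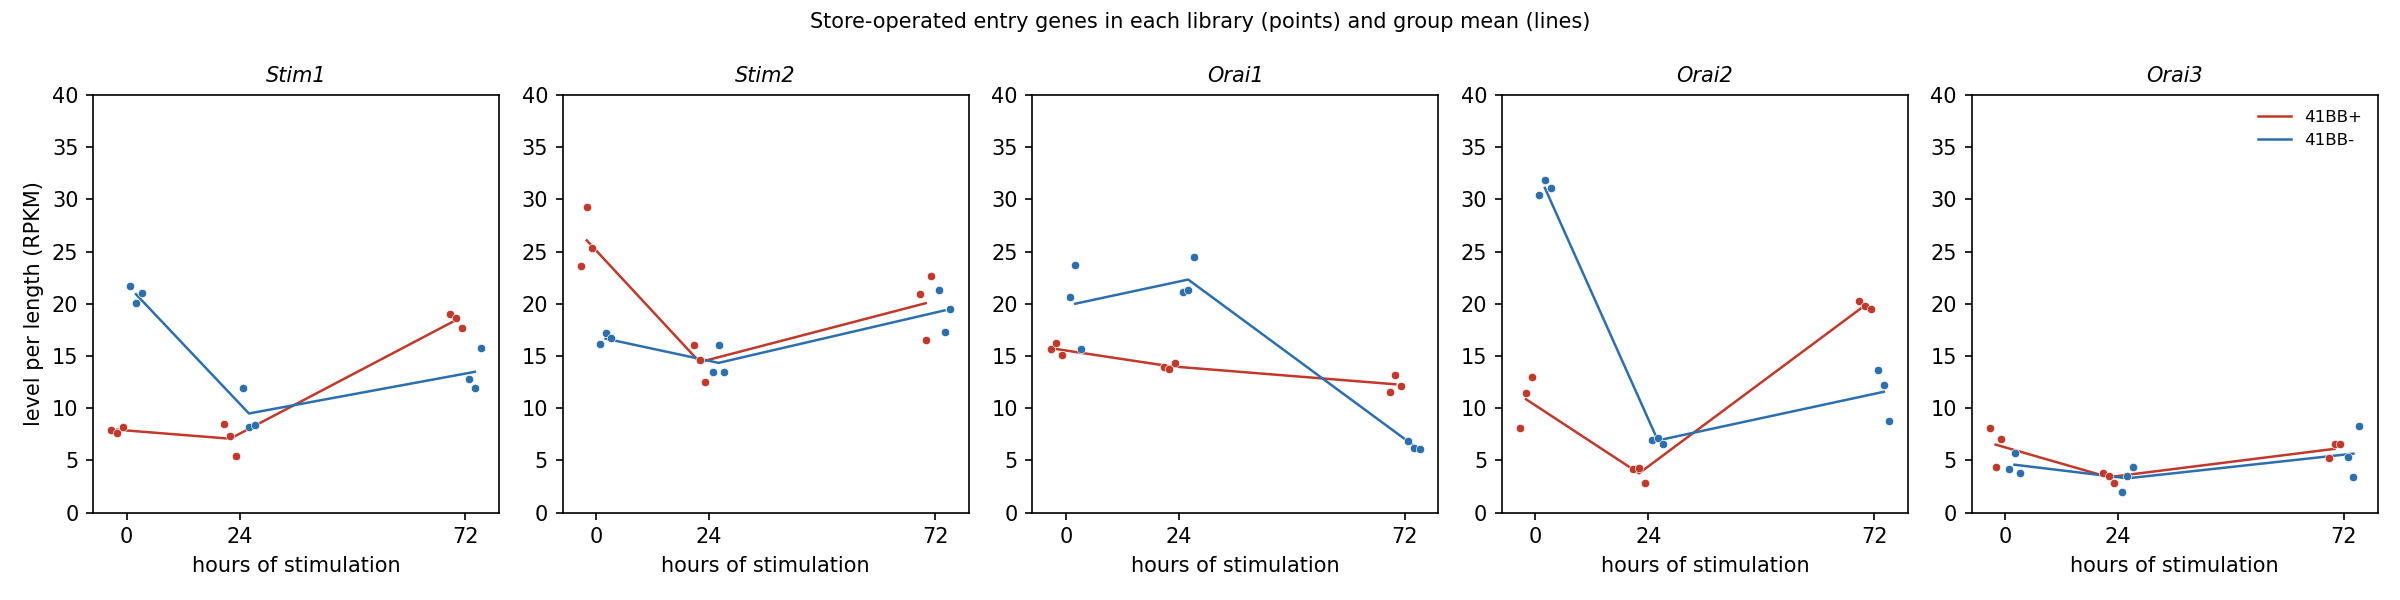
Level per length in RPKM (vertical axis, linear from 0, the same for all panels) of the STIM and ORAI genes against hours of stimulation. Points are libraries, red for 41BB+ and blue for 41BB-, and lines join the group means. Orai2 falls to 2.8 to 7.2 RPKM at 24 h in all libraries, while Orai1 is at 13.7 RPKM or more at that time.

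Kcna3 encodes the voltage-gated potassium channel best known from T cells, a gene of a single exon on chromosome 3 from 107036169 to 107038070 (plus strand). At 0 h it stood at 45.4, 41.8 and 38.4 CPM in 41BB+ and 27.0, 29.2 and 27.1 CPM in 41BB- libraries, with no overlap and a log2 fold change of 0.58 (SE 0.19) that was called. At 24 h the 41BB+ libraries were the lower ones, at 14.7, 16.7 and 14.8 CPM against 20.1, 22.0 and 22.4 CPM, and the log2 fold change of -0.36 (SE 0.20) was not called. At 72 h they were at 25.5, 38.4 and 34.7 CPM against 25.8, 21.5 and 20.99 CPM. The lowest 41BB+ library lay just under the highest 41BB- library there, and the log2 fold change of 0.56 (SE 0.19) passed the threshold.

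In 41BB+ cells Kcna3 fell by 1.38 (SE 0.19, log2) from 0 h to 24 h and rose by 1.16 (SE 0.19) from 24 h to 72 h. Its changes in 41BB- cells, -0.44 (SE 0.19) and 0.23 (SE 0.19), were not called. The differences of the changes, -0.94 (SE 0.27) and 0.93 (SE 0.27), were both called. Its population calls were close to the threshold: that at 0 h was lost without 41BB+ library 1 (0.52), without 41BB- library 1 (0.53) and with no filter on low counts (0.58), and the fall of 41BB- cells by 24 h was called with RLE factors (-0.48), DESeq2 (-0.48) and limma voom (-0.45). That at 72 h was lost with the experiment number as a block within each time (0.55), in limma voom (0.52), with only the compared groups (0.63), with no filter (0.61), and without 41BB+ library 2 (0.51) or 3 (0.57) or 41BB- library 2 (0.59) or 3 (0.57).

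Kcnn4 encodes the calcium-activated potassium channel of lymphocytes, opened through calmodulin, on chromosome 7 from 24370263 to 24386690 (plus strand). The populations had like values at 0 h, with 132, 142 and 142 CPM in 41BB+ and 125, 139 and 135 CPM in 41BB- libraries. All libraries were lower at 24 h, at 83.6, 58.1 and 43.5 CPM and at 69.9, 61.2 and 54.3 CPM. At 72 h 41BB+ libraries stood at 157, 202 and 169 CPM and 41BB- libraries at 157, 149 and 143 CPM. Between populations the log2 fold changes were 0.05 (SE 0.15), 0.11 (SE 0.16) and 0.27 (SE 0.15), none called, and that at 24 h was -0.17 without 41BB+ library 1 and 0.31 without 41BB+ library 3.

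Over time Kcnn4 fell by 1.12 (SE 0.16, log2) in 41BB+ and by 1.19 (SE 0.16) in 41BB- cells from 0 h to 24 h. It rose by 1.58 (SE 0.16) and by 1.43 (SE 0.16) from 24 h to 72 h. The interactions were 0.06 (SE 0.22) and 0.16 (SE 0.22), not called. Per length, the ratio of Kcnn4 to Kcna3 was 1.24 ± 0.149 in 41BB+ and 1.78 ± 0.067 in 41BB- cells at 0 h, 1.497 ± 0.540 and 1.08 ± 0.200 at 24 h, and 2.02 ± 0.251 and 2.46 ± 0.176 at 72 h (RPKM ratios, SD, n = 3).

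Kcnc1 encodes a fast voltage-gated potassium channel known from fast-spiking neurons, on chromosome 7 from 46396497 to 46438704 (plus strand). At 0 h it stood at 43.0, 43.8 and 45.5 CPM in 41BB+ and 40.9, 49.6 and 34.99 CPM in 41BB- libraries. By 24 h it was at 2.27, 1.59 and 1.02 CPM in 41BB+ and at 6.06, 6.62 and 5.40 CPM in 41BB- libraries, with no overlap. The fall from 0 h was 4.70 (SE 0.58, log2) in 41BB+ cells, the fifth largest fall of that contrast among called, not merely predicted genes with a mean of at least 5 CPM over the groups compared and no overlap of libraries (rank 108 by size of change among all tested genes), and 2.86 (SE 0.49) in 41BB- cells. The difference between the populations at 24 h, -1.77 (SE 0.65), was not called by the main test and was called with the experiment number as a block within each time (-1.78), in DESeq2 (-1.78) and with no filter on low counts (-1.79).

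At 72 h Kcnc1 was low or at 0, with 0, 0.873 and 2.69 CPM in 41BB+ and 0, 0.291 and 3.54 CPM in 41BB- libraries. Library 3 was the highest in both populations, and the population difference of -0.15 (SE 0.86, log2) was 2.94 without 41BB- library 3 and -1.54 without 41BB+ library 3, never called. From 24 h Kcnc1 fell by 1.97 (SE 0.66, log2) in 41BB- cells, a call lost without 24 h library 2 (-1.95) and without 72 h library 1 (-1.45) or 2 (-1.60), and the change in 41BB+ cells was -0.34 (SE 0.84), not called. The interaction over the first interval, -1.84 (SE 0.78), was not called, and it was with the block within each time (-1.85), in DESeq2 (-1.80), in limma voom (-1.85), with no filter (-1.86) and with only the compared groups (-1.78). Of the 3 markers of neurons and glia, Syt1 had group means of 4.86 (41BB+) and 6.17 CPM (41BB-) at 0 h and 0.786 and 0.717 CPM at 24 h, and Snap25 and Gfap were at 1.47 CPM or less in every group. The part of these markers in the fall was not tested.

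Kcnh5 encodes a voltage-gated potassium channel of the ether-a-go-go family, on chromosome 12 from 74897220 to 75177332 (minus strand), and had 10 or more counts in 8 of the 18 libraries. At 0 h it stood at 3.24, 3.72 and 2.37 CPM in 41BB+ and 3.72, 2.27 and 5.73 CPM in 41BB- libraries, and at 24 h all 6 libraries were at 0.850 to 1.42 CPM. Only at 72 h did the populations separate, at 11.2, 4.07 and 9.70 CPM in 41BB+ against 1.05, 3.20 and 0.236 CPM in 41BB- libraries. The log2 fold changes between populations were -0.35 (SE 0.64), -0.05 (SE 0.78) and 2.54 (SE 0.67), the last of them called.

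In 41BB+ cells, from 24 h to 72 h, Kcnh5 rose by 3.0 (SE 0.69, log2), and the change in 41BB- cells was 0.41 (SE 0.75), not called. The interaction over that interval was 2.59 (SE 1.04) and not called, though it was called without 41BB- 72 h library 2 (3.81). The fall in 41BB- cells from 0 h to 24 h, 1.75 (SE 0.70), lost its call in limma voom (-1.58), with no filter (-1.67) and when any of 5 of the 6 libraries compared was left out (all but 0 h library 2, -1.32 to -1.82).

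P2rx7 encodes a cation channel opened by extracellular ATP, on chromosome 5 from 122643911 to 122691432 (plus strand). It reached 10 counts in 4 libraries, all of them at 0 h. Per length it had the lowest mean of the 10 in 41BB- cells at each time. That mean was within the spread of Cacnb3 at 0 h and 24 h, and of Kcnc1 and Kcnh5 at 72 h. At 0 h P2rx7 was at 4.12, 2.00 and 2.63 CPM in 41BB+ and 1.86, 4.21 and 4.83 CPM in 41BB- libraries, which overlap, at a log2 fold change of -0.33 (SE 0.88). At 24 h there were 10 counts over the 3 libraries of 41BB+ and 3 counts over those of 41BB- cells, and at 72 h 7 and 8 counts. All 7 counts of 41BB+ cells at 72 h came from library 1.

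P2rx7 passed the filter on low counts through its 0 h libraries, from which its falls are measured. The fall from 0 h to 24 h was called in 41BB- cells, where 35 counts stood against 3. Their CPM ratio was 13.2, with an exact 95% interval of 4.16 to 67.0 that covers counting error only, and the call was lost without 24 h library 2 (log2 fold change -2.95). In 41BB+ cells the change of -1.64 (SE 0.98, log2) was not called. No population contrast of P2rx7 was called, at 1.64 (SE 1.27) at 24 h and -0.08 (SE 1.17) at 72 h. An annotated microRNA gene within it, Mir8115, had 0 counts.

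Trpv2 encodes a cation channel of the vanilloid group of TRP channels, on chromosome 11 from 62574486 to 62600515 (plus strand). At 0 h it was at 31.5, 30.6 and 30.5 CPM in 41BB+ and 61.4, 61.9 and 49.2 CPM in 41BB- libraries, with no overlap and a log2 fold change of -0.91 (SE 0.17) that was called. At 24 h the order had turned, at 23.8, 25.7 and 22.8 CPM in 41BB+ and 14.0, 20.1 and 18.7 CPM in 41BB- libraries, again with no overlap, but 0.56 (SE 0.18) was not called. By 72 h both populations were at their highest, at 89.2, 88.2 and 107 CPM and at 83.5, 68.3 and 97.9 CPM, which overlap, and the log2 fold change was 0.22 (SE 0.16).

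In 41BB- cells Trpv2 fell by 1.77 (SE 0.18, log2) from 0 h to 24 h, while -0.31 (SE 0.18) in 41BB+ cells was not called. The difference of these changes was 1.46 (SE 0.25) and called. Between 24 h and 72 h it rose by 2.04 (SE 0.17) in 41BB+ and by 2.38 (SE 0.18) in 41BB- cells, and the interaction of -0.33 (SE 0.24) was not called.

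Cnga1 encodes a subunit of the cyclic nucleotide-gated cation channel known from rod photoreceptors, on chromosome 5 from 72603696 to 72644275 (minus strand). At 0 h it was at 5.01, 3.15 and 7.10 CPM in 41BB+ and 13.3, 13.0 and 19.3 CPM in 41BB- libraries, and at 24 h at 2.55, 0.530 and 0.256 CPM against 3.51, 3.55 and 4.26 CPM. All 41BB- libraries were above all 41BB+ libraries at both times, and the log2 fold change was called at 0 h (-1.58, SE 0.44) and not at 24 h (-1.65, SE 0.57). At 72 h the 41BB+ libraries were above, at 15.9, 11.3 and 8.62 CPM against 2.37, 2.33 and 2.59 CPM. That log2 fold change, 2.31 (SE 0.47), was the fourth largest of the contrast in that direction among genes meeting the same conditions as for Kcnc1, and ranked 179 by size among all tested genes.

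From 0 h to 24 h Cnga1 fell in both populations, with log2 fold changes of -2.15 (SE 0.56) in 41BB+ and -2.08 (SE 0.45) in 41BB- cells. It then rose by 3.49 (SE 0.53) in 41BB+ cells, and -0.48 (SE 0.51) in 41BB- cells was not called. The difference of these changes, 3.97 (SE 0.74), was called. Library 1 held most of the counts of 41BB+ cells at 24 h, and without it the population difference at that time was -3.05 and passed the threshold.

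Cacnb3 encodes a cytoplasmic beta subunit of voltage-gated calcium channels, on chromosome 15 from 98630840 to 98644529 (plus strand). It was close to 0 before 72 h, with 13 and 25 counts over the 3 libraries of 41BB+ and 41BB- cells at 0 h and 2 counts over those of either population at 24 h. At 0 h 41BB- library 1 stood apart, at 5.89 CPM against 0.324 and 1.51 CPM in the other two and 1.18, 1.72 and 0.789 CPM in 41BB+ libraries. At 72 h it had climbed to 22.5, 26.2 and 21.3 CPM in 41BB+ and 14.0, 12.2 and 11.6 CPM in 41BB- libraries, with no overlap.

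From 24 h to 72 h Cacnb3 rose in both populations, from 2 to 251 counts in 41BB+ cells, a CPM ratio of 130 (exact 95% interval 35.7 to 1082), and from 2 to 144 counts in 41BB- cells, a ratio of 68.3 (18.6 to 569). These intervals pool the 3 libraries of each group and cover counting error only. By size of change among all tested genes the rise ranked 16 in 41BB+ and 34 in 41BB- cells, from 24 h libraries with 0 to 2 counts each. The gene passed the filter on low counts mainly through its 72 h libraries. Between populations at 72 h the log2 fold change of 0.92 (SE 0.46) was not called, and it was with only the compared groups in the fit (0.99) and in limma voom (0.92). At 0 h the difference of -1.08 (SE 0.67) was not called, was 0.34 without 41BB- library 1, and was called without 41BB- library 2 (-1.59). The fall from 0 h to 24 h was called in 41BB- cells, with 25 against 2 counts and a ratio of 14.1 (3.52 to 123), and lost without 0 h library 1 (log2 fold change -2.18) and in limma voom (-2.48). In 41BB+ cells the same fall, with 13 against 2 counts and a ratio of 6.82 (1.54 to 62.2), was called only without 24 h library 2 (log2 fold change -5.10).

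Ordered by level per length, Kcnn4 led at 0 h and 72 h and Orai1 at 24 h. This order rests on merged exon lengths, which ran from 1902 bases in Kcna3 to 10371 in Stim1. By CPM, Stim1 (82.3) stood above Kcna3 (41.8) in 41BB+ cells at 0 h. In 41BB+ cells at 0 h Kcnn4 (27.1 ± 1.13 RPKM) was followed by Kcna3 (22.0 ± 1.83), Orai1 (15.7 ± 0.539), Stim1 (7.94 ± 0.288), Trpv2 (6.88 ± 0.124) and Kcnc1 (4.66 ± 0.135). In 41BB- cells at 0 h Stim1 (20.9 ± 0.804 RPKM) and Orai1 (20.0 ± 4.08 RPKM) followed Kcnn4 and did not differ beyond their spread. The other 4 genes were at 2.40 RPKM or less in both populations at 0 h.

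At 24 h Orai1 stood at 14.0 ± 0.318 RPKM in 41BB+ cells, where it did not differ beyond the spread from Kcnn4 at 12.1 ± 3.97 RPKM, and at 22.3 ± 1.89 RPKM in 41BB- cells, where Kcnn4 was at 12.1 ± 1.53 RPKM. In 41BB+ cells at 72 h Kcnn4 (34.4 ± 4.55 RPKM) led, and Trpv2 (21.1 ± 2.35), Stim1 (18.4 ± 0.686) and Kcna3 (17.3 ± 3.49) overlapped in their spread. The same neighbours followed Kcnn4 (29.3 ± 1.33 RPKM) in 41BB- cells, Trpv2 at 18.6 ± 3.30, Stim1 at 13.5 ± 2.01 and Kcna3 at 11.97 ± 1.39 RPKM.

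As a description, the 3 genes most like each member were taken by Pearson's r over the 18 libraries, among 9342 genes with a mean of at least 5 CPM. It was taken on log2 CPM that, unlike the CPM printed elsewhere, had TMM scaling and a prior count of 2 added. The libraries share groups and depth, so r mostly follows the 6 group levels. The closest were Coro7 for Trpv2 (r = 0.980), Esyt2 for Stim1 (0.973), Fam107b for Kcnn4 (0.968), Pym1 for Cacnb3 (0.956), Limk1 for Kcnc1 (0.945), Pnpla7 for Cnga1 (0.942), Hopx for Kcna3 (0.924) and Zfp36l1 for Orai1 (0.916). Lower values were found for the thinly counted Kcnh5 (Taf8, 0.873) and P2rx7 (Lingo2, 0.856). Among the members themselves, Trpv2 went with Cacnb3 (r = 0.896) and Kcnn4 (0.841), Stim1 with Trpv2 (0.782) and Cnga1 (0.777), and Orai1 ran against Cacnb3 (-0.620) and Trpv2 (-0.579).

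For the rest of the pathway, 8 lists of 248 genes without the 10 were drawn up by role and family, and 132 of them had enough counts to be tested. At 0 h 10 of the 132 were higher and 37 lower in 41BB+ cells, with a median log2 fold change of -0.20 against 0.01 over all tested genes. At 24 h 1 was higher and 4 were lower, and at 72 h 13 were higher and 10 lower, with medians of 0.07 and 0.10 against 0.02 and -0.04. Of all tested genes, 22.2% were higher and 17.3% lower at 0 h, 1.67% and 1.07% at 24 h, and 6.71% and 12.2% at 72 h, and the counts of each list below stand against these shares. At 24 h the calls outside store-operated entry were Calm3, a calmodulin gene, higher at 223 against 168 CPM (0.52, adjusted p = 0.0029), and Kcna2, a relative of Kcna3, lower (-1.56, adjusted p = 0.0249), the latter lost in 6 alternatives. Each adjusted p in these paragraphs is from edgeR's quasi-likelihood test over all tested genes.

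Of the 8 tested partners of store-operated entry, 3 were lower and 2 higher in 41BB+ cells at 0 h. Orai2, a pore relative, was at 66.0 ± 14.9 CPM against 189 ± 4.41 CPM (log2 fold change -1.52, SE 0.17, adjusted p = 2.06e-08). Saraf, which slows store-operated entry, was at 115 ± 8.91 against 323 ± 19.3 CPM (-1.50, SE 0.14, adjusted p = 1.15e-09), and Cracr2a, a calcium-binding regulator of the channel, was lower as well (-1.53, SE 0.18). Higher were Stim2 (0.64, SE 0.14, adjusted p = 0.00059) and Pdia3, an endoplasmic reticulum protein that acts on disulfide bonds, at 511 ± 48.8 against 188 ± 24.8 CPM (1.42, SE 0.11, adjusted p = 1.49e-11).

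At 24 h Cracr2a (-0.85, adjusted p = 0.0146), Orai2 (-0.76, adjusted p = 0.0216) and Saraf (-0.54, adjusted p = 0.0406) were still the lower ones in 41BB+ cells. These calls were weak: that of Cracr2a was lost without 41BB+ library 3 (-0.70) or 41BB- library 2 (-0.72), that of Orai2 without 41BB+ library 3 (-0.59) or 41BB- library 1 (-0.76) or 2 (-0.74), and that of Saraf without any 41BB+ library or 41BB- library 1 or 2 (-0.43 to -0.62). At 72 h Saraf stood at 390 ± 28.0 against 207 ± 48.1 CPM (0.95, SE 0.14, adjusted p = 1.22e-05), Orai2 at 121 ± 2.37 against 70.3 ± 15.4 CPM (0.82, SE 0.17, adjusted p = 0.000757) and Cracr2a was higher by 0.54 (SE 0.18, adjusted p = 0.0313). Pdia3 was lower then, at 294 ± 24.2 against 473 ± 15.7 CPM (-0.65, SE 0.10, adjusted p = 4.67e-05).

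Of 15 tested genes for release from stores, 9 were lower in 41BB+ cells at 0 h (median log2 fold change -0.65), where 17.3% of all tested genes were lower. They included Itpkb, a kinase that turns inositol trisphosphate over, at 157 ± 9.72 against 407 ± 39.4 CPM (-1.39, SE 0.13, adjusted p = 1.17e-09), the release channel Itpr2 (-1.37, SE 0.14, adjusted p = 3.49e-09) and the phospholipase Plcg1 (-0.88, SE 0.12, adjusted p = 7.84e-07). At 72 h 4 of the 15 were higher (median 0.43), where 6.71% of all tested genes were higher. Among them were Inpp5a (0.80, adjusted p = 0.0106) and Itpkb (0.43, adjusted p = 0.0175), each lost when 1 library was left out (Inpp5a without 41BB- library 1, 0.64, and Itpkb without 41BB- library 2, 0.40), and Tpcn1, a channel of acidic stores (0.51, adjusted p = 0.0419). Tpcn1 lost its call with the experiment number as a block over all times (0.51), in limma voom (0.48), and without 41BB+ library 2 (0.54) or 3 (0.44) or 41BB- library 2 (0.42).

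Among 8 pumps and exchangers, the store pump Atp2a2 was higher in 41BB+ cells at 0 h, at 195 ± 4.83 against 88.9 ± 7.93 CPM (1.12, SE 0.14, adjusted p = 1.09e-07). Lower there were 3 others, among them the store pump Atp2a3, the form typical of blood cells, at 90.8 ± 16.2 against 199 ± 19.3 CPM (-1.14, SE 0.16, adjusted p = 1.17e-06), and the plasma membrane pump Atp2b1 (-0.88, SE 0.14, adjusted p = 1.35e-05). At 72 h Atp2a2 was the lower in 41BB+ cells (-0.49, adjusted p = 0.00999), a call lost without 41BB+ library 3 (-0.28) or 41BB- library 1 (-0.32) and with only the compared groups (-0.42). Of 8 genes of mitochondrial uptake, Letm1, a mitochondrial membrane protein, was higher at 0 h (0.52, SE 0.14, adjusted p = 0.0038).

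Downstream of entry, 7 of 19 tested genes of calmodulin, calcineurin and NFAT were lower in 41BB+ cells at 0 h and 2 higher, with a median of -0.02. The calcineurin subunit gene Ppp3ca was at 39.2 ± 7.38 against 152 ± 32.4 CPM (-1.97, SE 0.18, adjusted p = 8.32e-10) and Nfatc2 at 72.9 ± 3.31 against 155 ± 8.55 CPM (-1.11, SE 0.14, adjusted p = 2.19e-07). At 72 h 3 were lower and 1 higher, and the lower ones included Camkk2, a kinase activated by calmodulin (-1.07, SE 0.22, adjusted p = 0.000735).

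Among the other channels, 26 of 82 potassium channel subunits, 27 of 67 cation channel genes and 21 of 32 chloride and volume channel genes could be tested. The cation channel genes were taken mostly by the start of their symbols. That takes in Trpc4ap, the gene of a protein associated with a TRP channel and not of a channel, which was higher at 72 h (0.58, adjusted p = 0.00226). At 0 h 2 potassium channel genes were higher and 3 lower, 1 cation channel gene was higher and 5 lower, and 7 chloride or volume channel genes were lower in 41BB+ cells, with medians of -0.16, -0.05 and -0.29. Kcnq5, a voltage-gated potassium channel, was at 216 ± 58.6 against 29.8 ± 4.79 CPM (2.83, SE 0.34, adjusted p = 9.19e-06). At 72 h it was lower, at 32.3 ± 7.45 against 71.3 ± 38.2 CPM (-1.11, SE 0.34, adjusted p = 0.0323), a call lost in 6 alternatives, and -0.52 without 41BB- library 3. Trpm1, a TRP channel gene, was at 83.8 ± 15.2 against 17.8 ± 1.80 CPM (2.22, SE 0.32, adjusted p = 3.61e-06).

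Lower at 0 h in 41BB+ cells were P2rx4, another ATP-gated channel and relative of P2rx7, at 7.13 ± 0.851 against 30.8 ± 5.59 CPM (-2.12, SE 0.33, adjusted p = 7.97e-06), the proton channel gene Hvcn1 (-0.95, SE 0.19, adjusted p = 0.000185) and Lrrc8c, a subunit of volume-regulated anion channels (-1.45, SE 0.16, adjusted p = 6.83e-08). At 72 h the mechanically gated channel gene Piezo1 was lower (-0.57, SE 0.12, adjusted p = 0.00111). Cacnb1, a relative of Cacnb3, was higher then, at 29.9 ± 4.49 against 12.2 ± 1.29 CPM (1.33, SE 0.40, adjusted p = 0.0179), a call lost without 41BB- library 3 (1.31).

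**Figure D5:**
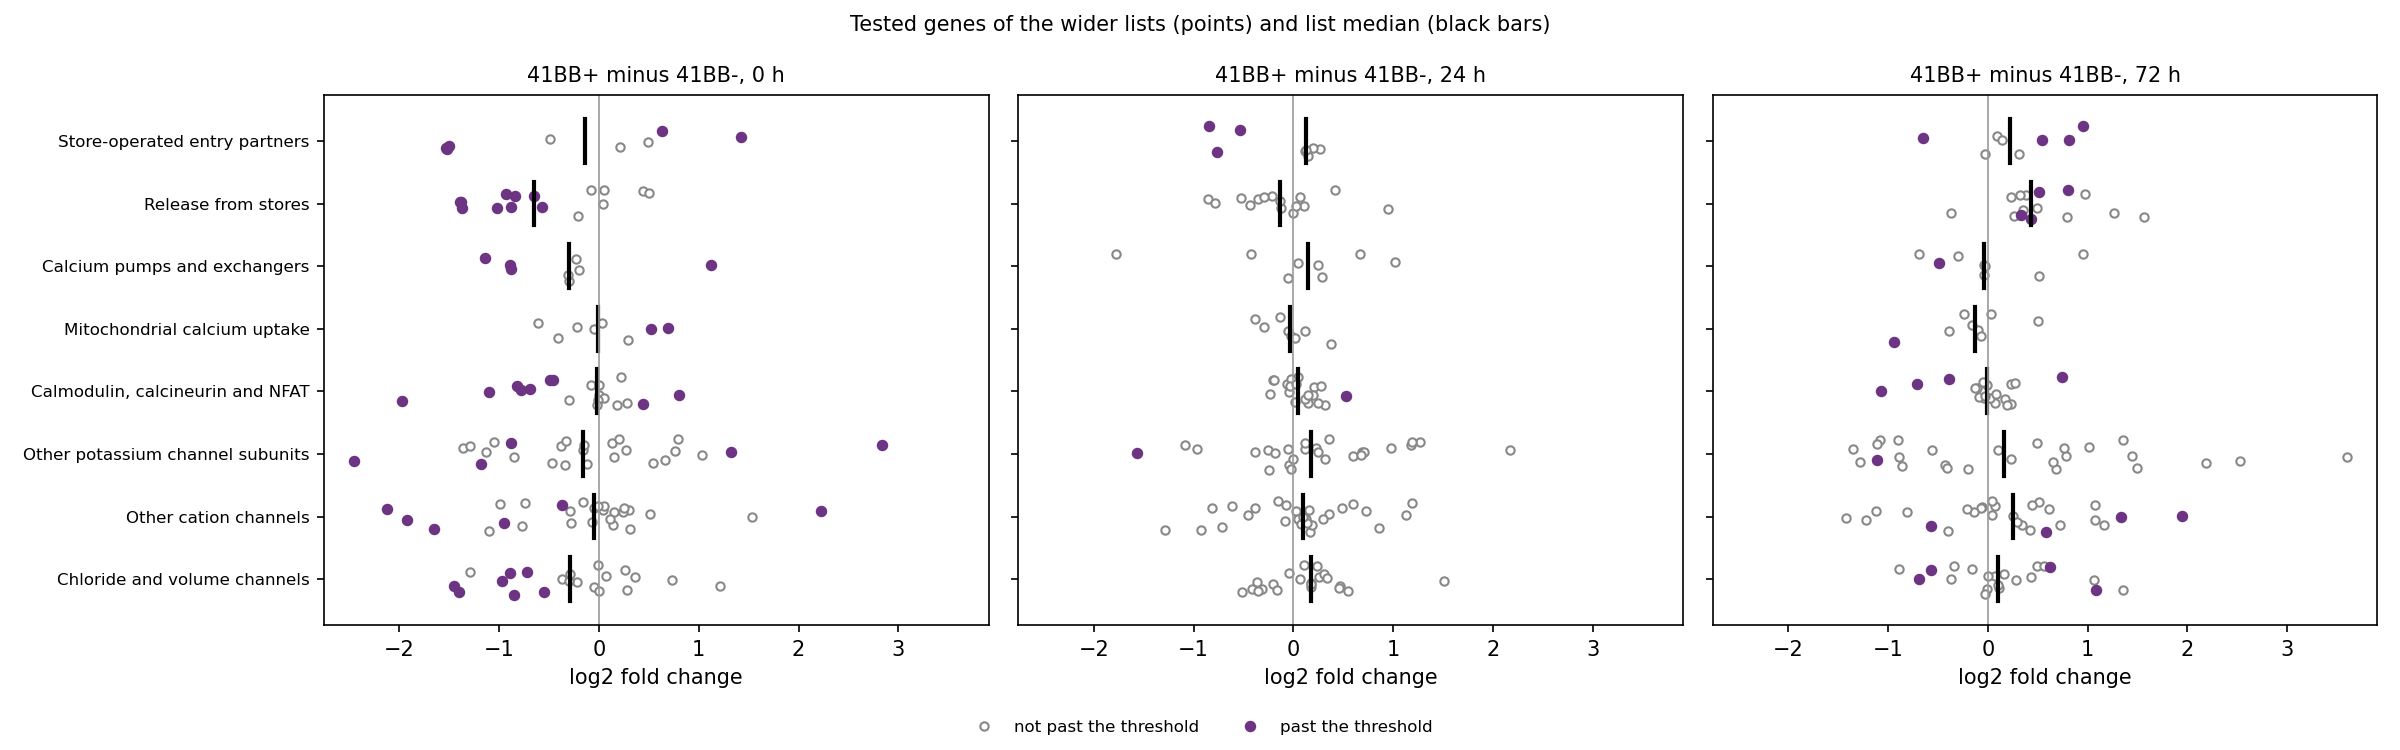
Fitted log2 fold change of 41BB+ over 41BB- cells (horizontal axis) for each tested gene of the 8 lists at 0, 24 and 72 h. Filled points passed the threshold and black bars are list medians. At 0 h the filled points lie mostly left of 0, 37 of 47, and at 72 h they lie on either side, 13 to the right and 10 to the left.

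Over time more genes of the lists fell than rose by 24 h, and more rose than fell from then to 72 h. From 0 h to 24 h 15 of the 132 rose and 28 fell in 41BB+ cells (median -0.55), and 16 rose and 65 fell in 41BB- cells (median -0.98), against medians of -0.06 and -0.07 over all tested genes. Over all tested genes 18.1% rose and 16.5% fell in 41BB+ cells and 29.0% rose and 27.6% fell in 41BB- cells. In 41BB+ and 41BB- cells the lowest list medians were -1.39 and -1.75 for potassium channel subunits and -1.03 and -1.63 for other cation channels. The 0 h libraries tended to have more genes detected, and the part of that in these falls was not tested. From 24 h to 72 h 52 rose and 19 fell in 41BB+ cells (median 0.49) and 49 rose and 14 fell in 41BB- cells (median 0.58), against 0.03 and 0.04. Over all tested genes 26.2% rose and 26.3% fell in 41BB+ cells and 22.6% rose and 18.2% fell in 41BB- cells. Kcna2 fell by 3.77 (log2, adjusted p = 1.17e-09) in 41BB+ and by 3.09 (adjusted p = 6.14e-10) in 41BB- cells by 24 h, and rose by 3.02 (adjusted p = 4.86e-08) in 41BB+ cells by 72 h. Its mean in 41BB- cells was 6.27 CPM at 24 h and 9.08 CPM at 72 h.

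Some pumps and the mitochondrial uniporter took other courses. Atp2a2 rose by 0.81 (adjusted p = 1.28e-05) in 41BB+ and by 1.69 (adjusted p = 1.71e-11) in 41BB- cells from 0 h to 24 h, and fell by 1.76 (adjusted p = 7.94e-12) in 41BB+ cells from 24 h to 72 h. In 41BB- cells its mean went from 303 to 134 CPM over the latter interval. Atp2b4, a plasma membrane pump, rose in 41BB+ cells over both intervals, by 1.83 (adjusted p = 6.20e-07) and 1.99 (adjusted p = 1.62e-09), and by 2.69 (adjusted p = 4.46e-11) from 24 h to 72 h in 41BB- cells. Mcu, the pore of the mitochondrial uniporter, rose by 0.92 (adjusted p = 0.00111) in 41BB+ cells by 24 h and fell by 1.39 (adjusted p = 3.97e-06) in 41BB+ and by 0.86 (adjusted p = 0.0020) in 41BB- cells by 72 h. Mean Mcu in 41BB- cells was 32.2 CPM at 0 h and 50.6 CPM at 24 h. Cacnb1 rose in 41BB+ cells from 24 h to 72 h, by 4.52 (adjusted p = 2.15e-08). Its mean in 41BB- cells went from 2.55 to 12.2 CPM over that interval.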

How the data were processed

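The authors deposited 1 table of whole-number read counts per Ensembl gene, not normalized, with 1 column for each of 18 libraries. Per the labels' protocols, libraries were made with a stranded total RNA kit (SMARTer, v2). Per the submitters' processing notes, the tools were FastQC 0.11.9, Trimmomatic 0.38, HISAT2 2.2.1 and featureCounts, with the build GRCm38. Neither the annotation nor the strand setting nor the treatment of multi-mapping reads is given in the sources used here, so reads of overlapping or antisense genes cannot be told apart. A second deposited table, of library labels, was not used.

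The 10 genes and all lists were chosen with earlier results of these data known. Symbols, coordinates and merged exon lengths came from GENCODE M21, which named 55227 of 55487 identifiers (260 without a symbol). CPM is counts over the library total, and RPKM is CPM per kilobase of merged exons, which takes no account of which transcript is made. Genes were kept by filterByExpr (minimum count 10, minimum total 15), which left 13150 and all 10 members. The members with counts in few groups passed through the groups where they are high. edgeR 4.0.16 (R 4.3.3) was used with TMM factors, 1 mean per group and robust quasi-likelihood F-tests over all 18 libraries (common biological coefficient of variation 0.18), with Benjamini-Hochberg adjustment over the tested genes and a threshold of 0.05. A standard error is the fold change divided by the root of F. The step was run on counts simulated from this fit for the 0 h population contrast only. That simulation had independent libraries and changed no thinly counted gene, so it cannot speak for the members near 0 counts or for pairing. Nothing says whether triplicates were separate animals, so p-values measure only the spread between these libraries.

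Named were all 10 members, from each list up to 3 genes with the smallest adjusted p past the threshold in each population contrast and up to 2 in each time contrast (of which the text gives a part), and Tnfrsf9, Cd8a, Cd8b1, Cd4 and Foxp3. Stim2 at 0 h and Cracr2a at 0 h and 72 h fall outside that rule, complete the store-operated list and were named after their values were seen. Some genes that the rule names are not reported here. Motifs were searched in RefSeq windows of 250 bases before the start.

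The titles number the libraries by experiment, shared by the populations. Deviations from group means were correlated over 12686 autosomal genes. Same-time pairs with one number (9) had a median r of 0.107, with -0.0430 the lowest and 5 over 0.1. Same-time pairs with unlike numbers (18) had -0.0632, and pairs across times with one number (36) had 0.0206. Because the titles call the number an experiment, it was taken as pairing 41BB+ with 41BB- libraries of a time. The main fit holds no term for this pairing, which enters only in the alternatives with a block. Tried besides were no filter, RLE factors, DESeq2 1.42.0, a block for the experiment number (over all times or within each time), only the compared groups, limma 3.58.1 voom with library quality weights, and each compared library left out. The rest used Python 3.11.15 with scipy 1.17.1, numpy 2.4.6, pandas 2.3.3, and matplotlib 3.10.9 for figures. Intervals are exact 95% intervals.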

Additional observations from a re-analysis of the deposited data

Results flagged for a closer look

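The change over time differed between the populations, in a test of the interaction, for members and for partners of store-operated entry. Values are the log2 change in 41BB+ cells minus that in 41BB- cells. From 0 h to 24 h this was 1.10 for Stim1, 1.46 for Trpv2 and -0.94 for Kcna3, given with no p because the members were chosen on these data. Over the same interval it was 0.76 for Orai2 (adjusted p = 0.0276, edgeR), 0.96 for Saraf and -1.30 for Pdia3. From 24 h to 72 h it was 0.79 for Stim1, 1.53 for Orai1, 0.93 for Kcna3 and 3.97 for Cnga1. Of the partners, Orai2 (1.58), Saraf (1.49), Cracr2a (1.39) and Pdia3 (-0.78) differed over that interval. Both intervals rest on the 24 h libraries, so the values of a gene over the 2 intervals are not independent.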

How the results depend on the processing

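Of 2586 values of 199 gene results under the alternatives, 2471 kept their direction and their side of the threshold or moved by less than the spread, 68 lost a call, 22 gained one, 25 values that were not called moved by more than the spread, and 0 called values changed sign. The 199 are results of the members and of list genes named for their small adjusted p in the main test. Those list results could lose a call but not gain one, so the share kept follows in part from that choice. Fits in which a gene was not tested gave no value. Between populations at 24 h, all genes called numbered 361, 577 with the experiment number as a replicate block within each time, 550 in limma voom, and 181 to 261 with 1 library left out. The lists' 5 calls at 24 h became 1 to 4 with 1 library left out. Of the 10 members none was called at 24 h in the main test, 2 were in DESeq2, 1 was with the replicate block within each time, 1 in limma voom, 1 with no filter on low counts, 1 with only the compared groups, and 0 to 1 were with 1 library left out. The matching numbers of all genes are not given here for DESeq2, no filter and only the compared groups. No more is read from these member counts. At 72 h 5 members were called between populations and 3 to 5 with 1 library left out, the 3 being without 41BB- library 2. From 0 h to 24 h in 41BB- cells 8 members were called, 5 with only the compared groups and 6 to 8 with 1 library left out. The replicate block changed no other call of a member beyond those of Kcna3 at 72 h and Kcnc1 at 24 h and over the first interval. The counts of Cacnb3, P2rx7, Kcnh5 and Kcnc1 limit what can be seen where they are near 0.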
